A study of Homo sapiens with 2 samples.

Results

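The 39 HOX genes of the human genome were examined for peaks of PRMT6 and PARP1 in MDA-MB-231 cells. MDA-MB-231 is an established triple-negative breast cancer cell line, and the cells were untreated. The study profiled them with an antibody against PRMT6, an enzyme that methylates arginines, and with an antibody against PARP1, an enzyme that attaches ADP-ribose to proteins, to find the promoters that both proteins occupy. Each antibody gave 1 library and 1 list of peaks, with 9080 peaks for PRMT6 and 11651 for PARP1. The HOX genes were taken by symbol (HOX, a letter from A to D, and a number) from 19719 protein-coding gene records of GRCh38, and they form 4 clusters. HOXA lies on chromosome 7 (27092993 to 27200091, 11 genes), HOXB on chromosome 17 (48528526 to 48728750, 10 genes), HOXC on chromosome 12 (53938831 to 54056030, 9 genes) and HOXD on chromosome 2 (176087487 to 176190907, 9 genes). All genes of a cluster are on the same strand.

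HOX genes encode transcription factors that carry a homeodomain, a DNA-binding fold, and give each level of the embryo its identity along the head-to-tail axis. Genes with the same number in different clusters are paralogs. Their order on the chromosome follows the order in which they are switched on, with low numbers toward the head and high numbers toward the tail. Polycomb proteins keep HOX genes silent and Trithorax proteins keep them active, and cancer cells often express a set of HOX genes that differs from the tissue of origin. PRMT6 is known from other work to methylate an arginine of histone H3 and so to hinder the Trithorax methyltransferases. With 1 library per antibody, no test between the antibodies was possible, and all values describe 1 library only. Each share carries a 95% exact binomial (Clopper-Pearson) interval, which cover counting error only and treat genes as independent, although neighbouring genes can share a peak.

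The HOX promoters were almost devoid of peaks. A promoter was taken as the window reaching 3 kb upstream and downstream of the 5′ end of the gene record. A PRMT6 peak lay at 1 of the 39 HOX promoters (2.56%, interval 0.0649% to 13.5%), whereas 18.3% of all protein-coding genes had one. A PARP1 peak lay at 0 of 39 (0% to 9.03%), against 22.5% of all protein-coding genes. No HOX gene had promoter peaks in both lists, which 13.4% of all protein-coding genes had. In both lists the upper bound for the HOX genes was below the share of all genes. At the genome-wide shares, 7.12 of 39 genes would carry a PRMT6 peak and 8.76 a PARP1 peak. The remaining 38 HOX genes had a promoter peak in neither list, where 27.3% of all protein-coding genes had one in at least 1 list.

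The exception was HOXD10, which belongs to the genes that pattern the limb and the lower trunk. Its PRMT6 peak lay on chromosome 2 from 176115964 to 176116252, in the gap between 2 gene records, 285 bp past the end of HOXD11 and 526 bp upstream of the 5′ end of HOXD10 (176116778). It was a weak peak. Its score, taken as the −log10 of the p-value given by the peak caller, was 3.63. Scores in the PRMT6 list lay between 3.09 and 55.5, and their median was 5.51. The peak ranked 8171 of 9080 and fell in the lowest decile of the list. Its width was 288 bp, the smallest in the list, which 4818 PRMT6 peaks (53.1%) had. No PARP1 peak lay nearer to HOXD10 than 279441 bp.

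The RefSeq promoter of HOXD10 (chr2:176116528-176116827, plus strand) is shown beside that of its paralog HOXA10 (chr7:27179812-27180111, minus strand), which had no peak, and beside 1 promoter each from HOXB and HOXC. HOXB1 (chr17:48530962-48531261, minus strand) was the HOX gene nearest to a PARP1 peak, and HOXC4 (chr12:54016638-54016937, plus strand) shares its 5′ end with HOXC5 and HOXC6. The promoter of ATP5MC1 (chr17:48892537-48892836, plus strand), which encodes a subunit of mitochondrial ATP synthase and lies 164 kb beyond HOXB13, is given for contrast because a peak of each list overlapped it. All are GRCh38.p14, run from 250 bases before to 50 bases after the start, and have their CpG dinucleotides in capitals.
HOXD10: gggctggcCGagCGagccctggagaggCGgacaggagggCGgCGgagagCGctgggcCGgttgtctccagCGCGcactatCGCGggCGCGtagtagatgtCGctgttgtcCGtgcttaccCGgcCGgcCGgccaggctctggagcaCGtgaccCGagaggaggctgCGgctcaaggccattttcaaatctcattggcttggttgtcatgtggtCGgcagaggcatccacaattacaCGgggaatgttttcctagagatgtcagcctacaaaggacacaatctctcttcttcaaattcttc
HOXA10: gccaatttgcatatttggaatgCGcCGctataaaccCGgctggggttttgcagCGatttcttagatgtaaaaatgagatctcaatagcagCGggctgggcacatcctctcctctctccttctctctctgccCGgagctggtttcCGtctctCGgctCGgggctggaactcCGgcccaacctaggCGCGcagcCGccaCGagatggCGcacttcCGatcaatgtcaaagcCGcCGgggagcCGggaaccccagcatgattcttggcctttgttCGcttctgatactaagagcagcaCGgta
HOXB1: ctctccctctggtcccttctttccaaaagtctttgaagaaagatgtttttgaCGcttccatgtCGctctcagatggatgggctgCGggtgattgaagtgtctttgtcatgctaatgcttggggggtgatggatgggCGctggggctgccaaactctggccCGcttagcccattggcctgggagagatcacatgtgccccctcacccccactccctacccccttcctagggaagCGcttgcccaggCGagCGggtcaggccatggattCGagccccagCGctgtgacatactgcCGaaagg
HOXC4: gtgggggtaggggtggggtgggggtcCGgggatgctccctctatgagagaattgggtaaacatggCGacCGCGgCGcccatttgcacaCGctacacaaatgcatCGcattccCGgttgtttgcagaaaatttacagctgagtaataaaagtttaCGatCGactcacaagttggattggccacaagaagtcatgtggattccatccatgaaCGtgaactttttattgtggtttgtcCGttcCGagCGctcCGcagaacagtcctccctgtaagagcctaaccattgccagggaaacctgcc
ATP5MC1: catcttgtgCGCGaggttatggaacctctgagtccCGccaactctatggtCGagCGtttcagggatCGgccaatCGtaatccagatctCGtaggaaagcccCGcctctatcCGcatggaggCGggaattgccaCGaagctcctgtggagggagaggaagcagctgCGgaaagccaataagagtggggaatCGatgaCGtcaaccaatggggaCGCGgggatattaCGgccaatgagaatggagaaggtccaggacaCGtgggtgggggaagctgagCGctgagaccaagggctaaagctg

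The HOXD10 sequence held 23 CpG dinucleotides, HOXA10 held 21, HOXC4 held 15 and HOXB1 held 11, whereas ATP5MC1 held 20. The median over 34796 promoters of this length was 14, with quartiles of 4 and 28. The CpG number of the ATP5MC1 promoter, with peaks in both lists, lay between those of HOXA10 and HOXC4, with none. These are single promoters, and ATP5MC1 was picked for its peaks, so a link between CpG number and peaks was not tested here. The PRMT6 peak of HOXD10 ended 276 bp before its printed sequence. Short motifs were searched on both strands. CCAAT was found once or more in each of the 5 sequences and in 34.6% of all promoters, with 4 matches in ATP5MC1, 2 in HOXC4 and 1 in each of the others. The palindrome CACGTG, an E-box that clock factors can bind, occurred once in HOXD10 and once in ATP5MC1 and in 7.20% of all promoters. HOXA10 held 1 TATAAA (11.6% of all promoters) and HOXD10 held 1 GGGCGG (44.9%). None of the 5 sequences contained the palindromic NRF1 motif (1.23% of all promoters), the ETS motif CCGGAAG (10.2%), the homeodomain core TAATTA (4.86%) or TGATTNAT (2.82%), a sequence that HOX and PBX proteins can bind together. A promoter sequence was at hand for 20 of the 39 HOX genes, so no count of motifs over the family is given.

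By cluster, the promoter counts were 0 of 11 for HOXA, 0 of 10 for HOXB, 0 of 9 for HOXC and 1 of 9 for HOXD (11.1%, 0.281% to 48.2%), in either list. By position along the cluster, they were 0 of 8 for paralogs 1 to 3, 0 of 15 for paralogs 4 to 8 and 1 of 16 for paralogs 9 to 13 (6.25%, 0.158% to 30.2%). All these intervals overlapped, so neither the clusters nor the positions could be told apart by promoter peaks.

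Peaks were then counted anywhere in the clusters. Over the 528 kb of the 4 clusters there were 2 PRMT6 and 2 PARP1 peaks. HOXA and HOXC held none of either list. HOXD held the PRMT6 peak upstream of HOXD10. The other 3 peaks lay in HOXB, which is the longest cluster (200.2 kb) because HOXB13 stands apart from HOXB9. In the space between these genes lay a PRMT6 peak (chromosome 17, 48669103 to 48669391, score 4.79, rank 5718) and a PARP1 peak (48678479 to 48678679, score 5.93, rank 6769). Both overlapped the record of LINC02086, a long noncoding RNA gene, and were 9088 bp from each other. The first was 42745 bp upstream of the 5′ end of HOXB9, and the second was 50071 bp downstream of that of HOXB13.

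The last peak was a PARP1 peak between HOXB1 and HOXB2 (chromosome 17, 48537128 to 48537410). HOXB1 and HOXB2 are hindbrain genes. It lay 6117 bp upstream of the 5′ end of HOXB1 and 7699 bp downstream of that of HOXB2, with a score of 6.27 and rank 6170 of 11651. This was the nearest that a PARP1 peak came to any HOX promoter. None of the 4 peaks overlapped a HOX gene record or a peak of the other list. In the PRMT6 list as a whole, 46.4% of peaks (45.3% to 47.4%) overlapped a PARP1 peak. Among the PRMT6 peaks of the same score deciles as the HOXD10 peak and the HOXB peak, 7.27% (5.67% to 9.16%) and 23.7% (20.9% to 26.6%) did. For PARP1 the share was 36.4% (35.5% to 37.3%) over the list and 27.6% (321 of 1165) in the decile of both HOXB peaks.

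**Figure D1:**
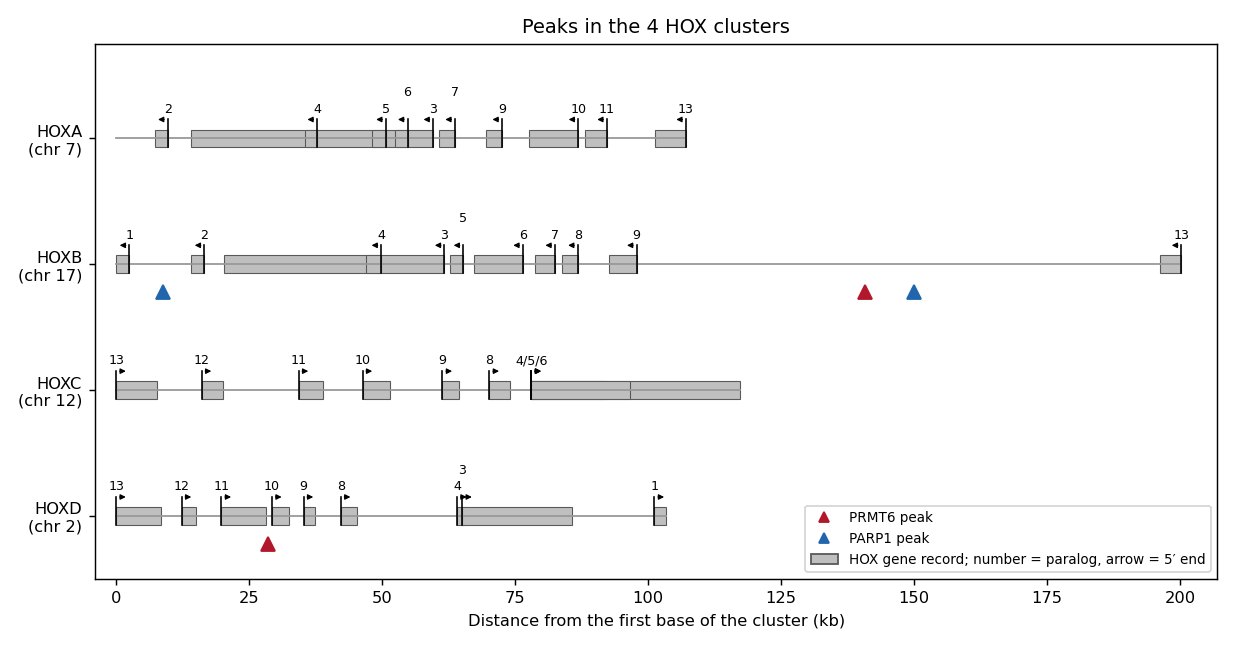
Map of the 4 HOX clusters. The horizontal axis gives the distance from the first base of the cluster in kb, grey boxes are the records of 38 HOX genes with their paralog numbers, upright lines with arrows mark 5′ ends and the direction of transcription, and triangles mark peaks. HOXA and HOXC hold no peak, HOXD holds 1 PRMT6 peak next to HOXD10, and HOXB holds 1 PRMT6 and 2 PARP1 peaks outside its gene records.

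Peak number was next set against length, although 2 peaks per list give a wide interval. The 2 PRMT6 peaks amount to 0.379 per 100 kb (exact Poisson interval 0.0459 to 1.37), and the chromosomes that carry coding genes had 0.301 per 100 kb. For PARP1 the values were 0.379 per 100 kb in the clusters and 0.386 over the chromosomes. Protein-coding gene records alone had 0.449 per 100 kb for PRMT6 and 0.539 for PARP1. All of these lay within the intervals for the clusters. The cluster values depend on single peaks, since each list kept 1 peak when HOXB was ended at HOXB9, and 0 in its higher-scoring 50%. Without peaks of the smallest width, 0 PRMT6 peaks and 1 PARP1 peak were left.

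Peaks were also set against gene starts. The clusters held 42 coding 5′ ends, or 7.96 per 100 kb, where the chromosomes had 0.653 per 100 kb. Besides the 39 HOX genes, these are PRAC1 and PRAC2, which lie next to HOXB13, and a record that joins HOXA10 and HOXA9. Per 100 coding 5′ ends there were 4.76 peaks in the clusters (0.577 to 17.2) for either antibody, against 46.0 PRMT6 and 59.0 PARP1 peaks over the chromosomes. Of 34 noncoding records within the cluster bounds, 8 of them microRNA genes, LINC02086 was the only one that a peak overlapped.

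The distances to the nearest peak differed between the clusters. For the HOXA genes described singly, the nearest PRMT6 peak was 237.8 to 335 kb and the nearest PARP1 peak 147 to 238 kb from the 5′ end. HOXC was similarly remote, with 211 to 272 kb for PRMT6 and 206 to 245 kb for PARP1. In HOXB the distances were 42.7 to 90.8 kb for PRMT6 and 6.12 to 67.6 kb for PARP1. HOXD was split between the antibodies, since its genes were 0.526 to 72.4 kb from a PRMT6 peak and 231 to 290 kb from a PARP1 peak. The HOXD values for PRMT6 all refer to the weak peak next to HOXD10. Within 10 kb of it were also the 5′ ends of HOXD9 and HOXD11. Hence 3 HOX genes (HOXD9, HOXD10 and HOXD11) had a PRMT6 peak within 10 kb, where 24% of all protein-coding genes had one. HOXB1 and HOXB2 had a PARP1 peak within 10 kb, where 29.4% of all genes had one. Counting peaks within a gene record or up to 3 kb from it, HOXD10 and HOXD11 had a PRMT6 peak and no HOX gene had a PARP1 peak, and the shares of all genes were 30.6% and 35.4%.

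The nearest peak was in most cases the same for neighbouring genes, so the distances within a cluster changed with the position of the 5′ end. This is not the order of the paralog numbers throughout, since the 5′ end of the long HOXA3 record lies between those of HOXA6 and HOXA7, and that of HOXB3 between those of HOXB4 and HOXB5. For PRMT6 in HOXA the distances rose from 237.8 kb at HOXA2, a hindbrain gene, to 278.8 kb at HOXA5, to 287.7 kb at HOXA3, to 300.6 kb at HOXA9, a gene of blood progenitors, and to 335.2 kb at HOXA13, a gene of limb and genital tract. All refer to the same peak at the SKAP2 promoter. For PARP1 the order turned within HOXA, since HOXA2 was nearest to the SKAP2 peak (237.6 kb) and 9 genes were nearest to a peak on the far side, from 216.1 kb at HOXA4 to 146.8 kb at HOXA13.

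In HOXB, the PARP1 distance rose from 6.12 kb at HOXB1 to 7.70 kb at HOXB2 and, in the order of the 5′ ends, 40.9 kb at HOXB4, 52.8 kb at HOXB3 and 56.4 kb at HOXB5. It reached 67.6 kb at HOXB6 and 67.5 kb at HOXB7 and was 52.1 kb at HOXB9. HOXB13, a gene of prostate and hindgut, was 59.4 kb from a PRMT6 peak and 50.1 kb from a PARP1 peak. At HOXB7, the PRMT6 distance was 58.1 kb. In HOXC, the genes with the highest numbers were nearest to the peaks at the CALCOCO1 promoter, with 211.1 kb for PRMT6 and 211.2 kb for PARP1 at HOXC13, a hair follicle gene. HOXC8 was 270.6 kb from a PRMT6 peak and 213.6 kb from a PARP1 peak.

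In HOXD, the PRMT6 distances on both sides of HOXD10 were 6.47 kb at HOXD9 and 8.68 kb at HOXD11, 13.5 kb at HOXD8 and 16.2 kb at HOXD12, and 28.5 kb at HOXD13, a gene of digits. The genes with the lowest numbers, HOXD4, HOXD3 and HOXD1, were 35.3, 36.3 and 72.4 kb away. The HOXD values for PARP1 peaked at HOXD8 (289.9 kb), between peaks far outside the cluster.

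Over all 39 HOX genes the median distance was 211 kb for PRMT6 and 206 kb for PARP1. Over all protein-coding genes it was 55.2 kb and 42.3 kb. More than 100 kb from a PRMT6 peak were 20 HOX genes (51.3%, against 36.4% of all genes), and more than 100 kb from a PARP1 peak were 29 (74.4%, against 32.0%). Genes of a cluster share their nearest peaks, so these values rest on few independent positions.

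**Figure D2:**
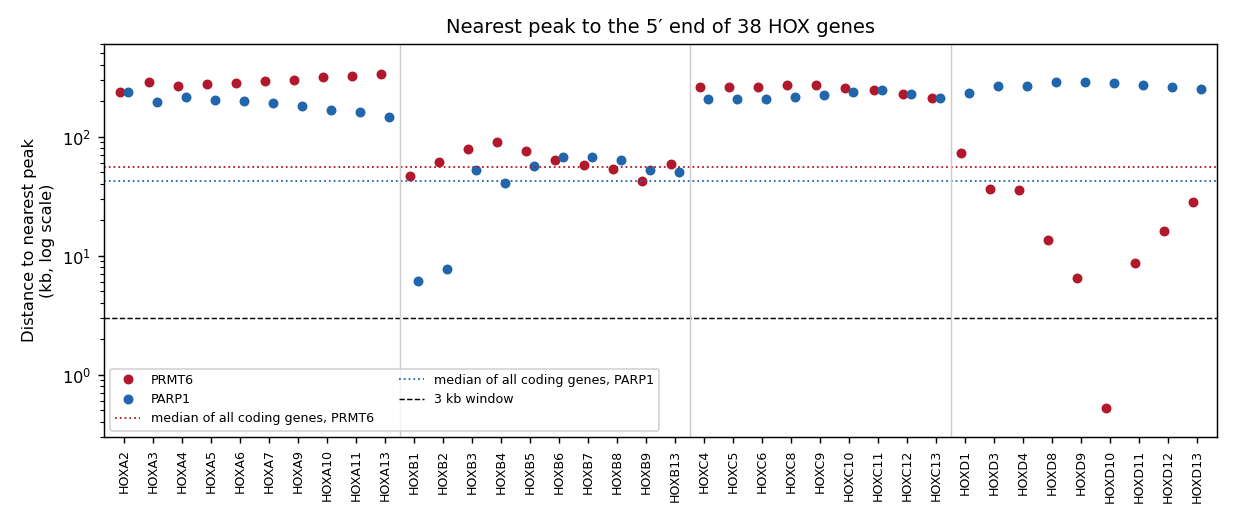
Distance from the 5′ end of 38 HOX genes to the nearest PRMT6 and PARP1 peak in kb, on a log scale, with 1 point per gene and antibody. The dashed line is the 3 kb promoter window and dotted lines are the medians of all protein-coding genes (55.2 kb and 42.3 kb). Only HOXD10 falls inside the window, and the HOXA and HOXC genes lie above 100 kb in both lists.

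CpG content and gene crowding were set beside the promoter counts. The CpG number observed over expected was taken within 500 bp of the GENCODE start in GRCh37. This start can differ from the 5′ end of the record at which promoter peaks were counted, as for genes among HOXC4, HOXC5 and HOXC6. It was known for 39 of 39 HOX genes and ranged from 0.274 (HOXA9) to 0.981 (HOXA5), with a median of 0.695. The median of all genes was 0.691. The 9484 other genes at or above the HOX median had PRMT6 promoter peaks in 26.5% and PARP1 promoter peaks in 31.9% of cases, with both in 19.8%. HOX genes were more crowded than others, with a median of 6 other coding 5′ ends within 50 kb, where the median of all genes was 1. In the 1303 other genes that were at least as crowded, the shares were 26.6% and 29.1%, with both in 21.6%. Genes that met both conditions, 532 in number, had the highest shares of these strata, 39.5% and 40.6%, with both in 32%. These strata have no upper limit and HOX genes lie on both sides of their bounds, so they are not genes of like CpG content or crowding, and the part of either in the HOX counts was not tested.

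The chromosome around the clusters was not devoid of peaks. Within 1 Mb on either side of the 4 clusters there were 44 PRMT6 and 56 PARP1 peaks, or 0.55 (0.400 to 0.738) and 0.70 (0.529 to 0.909) per 100 kb. Per 100 coding 5′ ends this was 46.8 and 59.6 peaks, close to the 46.0 and 59.0 over the chromosomes. The surroundings differed between clusters. Around HOXB there were 16 PRMT6 and 20 PARP1 peaks with 34 coding 5′ ends, and around HOXC 19 and 23 peaks with 46. The surroundings of HOXA, with 9 coding 5′ ends, held 4 and 5 peaks, and those of HOXD, with 5, held 5 and 8.

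**Figure D3:**
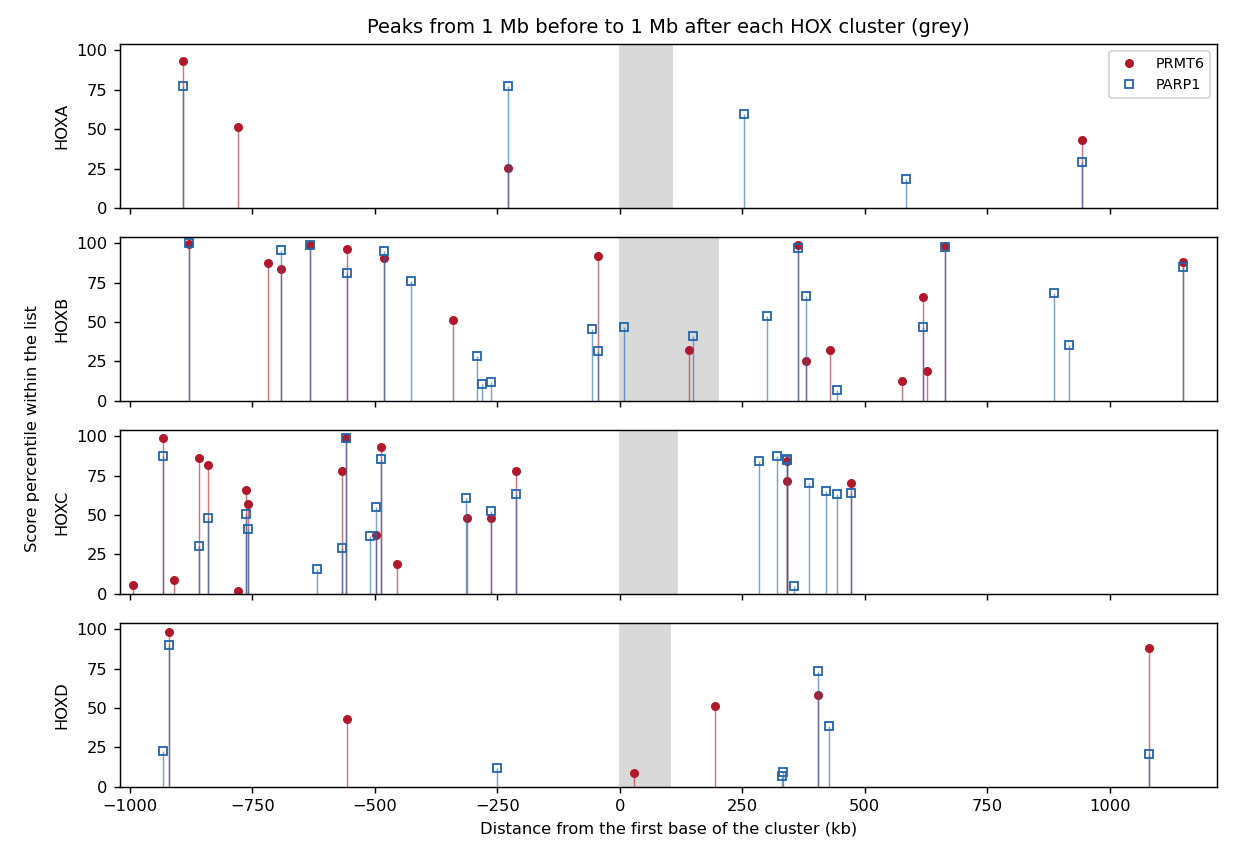
Peaks of both lists from 1 Mb before to 1 Mb after each HOX cluster. The horizontal axis is the distance from the first base of the cluster in kb, the vertical axis is the percentile of the peak's score within its list, and the cluster is shaded grey. There are 44 PRMT6 and 56 PARP1 peaks outside the shaded clusters and 2 of each inside, all of the latter below the 50th percentile.

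Most clusters lay in long stretches between consecutive peaks. HOXA lay whole in a stretch of 1172 kb without a PRMT6 peak, which held 15 coding 5′ ends. It began at the promoter of SKAP2, a gene for an adaptor protein of immune cells, and ended within JAZF1. For PARP1 the stretch around HOXA was 482 kb and held 13 coding 5′ ends. HOXC lay in a stretch of 552 kb without PRMT6 peaks and one of 495 kb without PARP1 peaks, each with 10 coding 5′ ends. All of HOXD lay in a stretch of 582 kb without PARP1 peaks, which held 12. The PRMT6 peak next to HOXD10 split HOXD into stretches of 586 kb and 165 kb. HOXB was split in both lists, with a PRMT6 stretch of 185 kb that held 9 coding 5′ ends and PARP1 stretches of 53.5, 141 and 150.3 kb that held 1, 8 and 4. Such stretches were not particular to HOX genes. Among 9053 stretches of the PRMT6 list, 83 others held at least as many coding 5′ ends as that around HOXA, 259 as that around HOXC and 340 as the one of 185 kb in HOXB. Among 11619 of the PARP1 list, the numbers were 105 for HOXA, 218 for HOXC, 135 for HOXD and 378 for the stretch of 141 kb in HOXB.

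The nearest coding genes on either side of the clusters were counted too, with 5′ ends from 3.53 kb (EVX2) to 1362 kb (IFT70B) away. The 4 clusters arose by duplication of a chromosome segment, and their neighbours include related genes, such as CBX3, CBX1 and CBX5, which encode heterochromatin protein 1, and HNRNPA2B1, HNRNPA1 and HNRNPA3, which encode RNA-binding proteins. Of the 5 nearest coding genes on either side of each cluster, 40 in all, 16 had a PRMT6 promoter peak (40%, 24.9% to 56.7%) and 17 had a PARP1 promoter peak (42.5%, 27.0% to 59.1%). Both were present at 14 (35%, 20.6% to 51.7%). These intervals did not overlap those of the HOX genes. The contrast does not hold for the neighbours closest to the clusters. No promoter peak of either list lay at EVX2 (3.53 kb), EVX1 (42.7 kb), MTX2 (78.5 kb), SKAP1 (83.5 kb), LNPK (84.7 kb) or TTLL6 (88.5 kb). All neighbours with a promoter peak were more than 100 kb from their cluster, the nearest being CALCOCO2 (102 kb). Some neighbours share a peak, such as COPZ2 and NFE2L1 or HNRNPA2B1 and CBX3, which are read in opposite directions from nearly the same place. CBX5 and HNRNPA1 share their peaks too. ATF7 and ATF7-NPFF, a record that joins ATF7 and NPFF, have the same 5′ end and the same peaks but are counted separately. The neighbours therefore rest on fewer independent positions than genes, and their intervals are too narrow to that extent.

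The best-placed neighbours were ATP5MC1, ATF2, COPZ2 and NFE2L1. At ATP5MC1 the PRMT6 peak (chromosome 17, 48892395 to 48892866) ranked 92 and the PARP1 peak (48892277 to 48892804) ranked 319. ATF2, which encodes a stress-responsive transcription factor and lies 919 kb from HOXD13, had peaks of rank 159 and 1138 (chromosome 2, 175168074 to 175168639 and 175168159 to 175168578). COPZ2, for a coat protein of Golgi vesicles, and NFE2L1, for a transcription factor of proteasome genes, shared peaks of rank 866 and 582 (chromosome 17, 48047946 to 48048731 and 48048033 to 48048720).

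Families with members among the neighbours of more than 1 cluster, named here after their values were seen, differed among themselves. The HNRNPA genes had peaks of both lists, though far from the clusters. The ranks were 620 and 2601 at HNRNPA2B1 (892 kb from HOXA) and 1418 and 1685 at HNRNPA1 (225 kb from HOXC). At HNRNPA3 (1022 kb from HOXD) they were 3341 and 1186. CBX3 shared the HNRNPA2B1 peaks and CBX5 shared those of HNRNPA1, while CBX1 had a PARP1 peak alone (rank 2802). ATF2 (919 kb from HOXD, ranks 159 and 1138) and ATF7 (312 kb from HOXC, ranks 4689 and 4563) had peaks of both lists. CREB5 (1099 kb from HOXA) had none. In several other families, 1 member had peaks of both lists and its relatives did not. ATP5MC1 had them, and ATP5MC2 and ATP5MC3 had none. NFE2L1 had them, NFE2L2 had a PRMT6 peak alone, and NFE2L3 and NFE2 had none. SKAP2 had them and SKAP1 had none, while COPZ1, the relative of COPZ2, and CALCOCO2, the relative of CALCOCO1, had a PARP1 peak alone. Neither SNX10 nor SNX11 had a promoter peak. The neighbours that are themselves homeobox genes, EVX1 (42.7 kb from HOXA) and EVX2 (3.53 kb from HOXD), had no promoter peak in either list. By cluster, both antibodies had promoter peaks at 3 of 10 neighbours of HOXA, 4 of 10 of HOXB, 5 of 10 of HOXC and 2 of 10 of HOXD. The HOXC count includes both ATF7 and ATF7-NPFF.

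Few other homeobox genes had promoter peaks either. Of 15 ParaHox and HOX-related genes, among them CDX1, CDX2, PDX1, EN1 and GBX2, 0 had a promoter peak in either list (0% to 21.8%). That interval included the PRMT6 share of all genes (18.3%) but not the PARP1 share (22.5%). EVX1 and EVX2 are counted both here and among the neighbours. Of 46 other homeobox genes of development, 3 had a PRMT6 and 3 a PARP1 promoter peak (each 6.52%, 1.37% to 17.9%). The upper bound for these 46 genes was below the share of all genes in both lists. Peaks of both lists lay at 2 of them. SIX2, a gene of kidney progenitors, had a PRMT6 peak that spanned its 5′ end (chromosome 2, 45009375 to 45009726, rank 2674) and a PARP1 peak that ended at -16 bp relative to it (45009468 to 45010046, rank 1699). At IRX5, an Iroquois gene of heart and retina, the peaks ended at -1643 and -1448 bp relative to the 5′ end (chromosome 16, 54928916 to 54929222, rank 4600, and 54929161 to 54929417, rank 3278). NKX6-1 had a PRMT6 peak only and DLX4 a PARP1 peak only; they too are named after their values were seen.

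The genes whose products work with HOX proteins or set their expression had promoter peaks at shares no lower than those of all genes. The TALE homeodomain proteins bind DNA together with HOX proteins. Of their 9 genes, 2 had a PRMT6 and 3 a PARP1 promoter peak (22.2%, 2.81% to 60.0%, and 33.3%, 7.49% to 70.1%). At PKNOX1 both peaks spanned the 5′ end and ranked 131 and 224 (chromosome 21, 42974000 to 42974660 and 42974152 to 42974660). PBX3 had peaks of rank 1358 and 1597 (chromosome 9, 125746288 to 125746713 and 125746082 to 125746469).

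Polycomb genes had a PRMT6 promoter peak in 9 of 30 cases (30%, 14.7% to 49.4%) and a PARP1 promoter peak in 11 (36.7%, 19.9% to 56.1%), with both at 6. The best-placed were CBX8, which reads the Polycomb histone mark (chromosome 17, 79796982 to 79797539 and 79796973 to 79797401, ranks 350 and 1488), and PCGF3, a subunit of the Polycomb ubiquitin ligase (chromosome 4, 705410 to 705820 and 705434 to 705778, ranks 1012 and 2297). JARID2, which guides the Polycomb methyltransferase, followed with ranks of 1543 and 3820, and RBBP4, a histone-binding subunit, with 2674 and 3516.

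Among 16 Trithorax and related activator genes, 4 had a PRMT6 peak (25%, 7.27% to 52.4%) and 6 had a PARP1 peak (37.5%, 15.2% to 64.6%). KMT2A, the methyltransferase that maintains HOX expression in blood, had peaks of rank 729 and 2083 (chromosome 11, 118435969 to 118436497 and 118436011 to 118436421). MEN1, which encodes its partner menin, had peaks of rank 3935 and 4307. At ASH2L, a core subunit of these methyltransferases, the peaks ranked 5718 and 8920. The intervals of the last 3 lists included the shares of all genes, so these lists were not separated from genes in general.

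Other families that lie in clusters of related genes were counted in the same way. The 246 zinc finger genes of chromosome 19 had PRMT6 promoter peaks in 16.7% (12.2% to 21.9%) and PARP1 promoter peaks in 20.3% (15.5% to 25.9%) of cases. For 73 replication-dependent histone genes the shares were 23.3% (14.2% to 34.6%) and 35.6% (24.7% to 47.7%). Each of these intervals lay wholly above the HOX share, although the PRMT6 interval of the HOX genes reached 13.5% and overlapped that of the zinc finger genes.

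**Figure D4:**
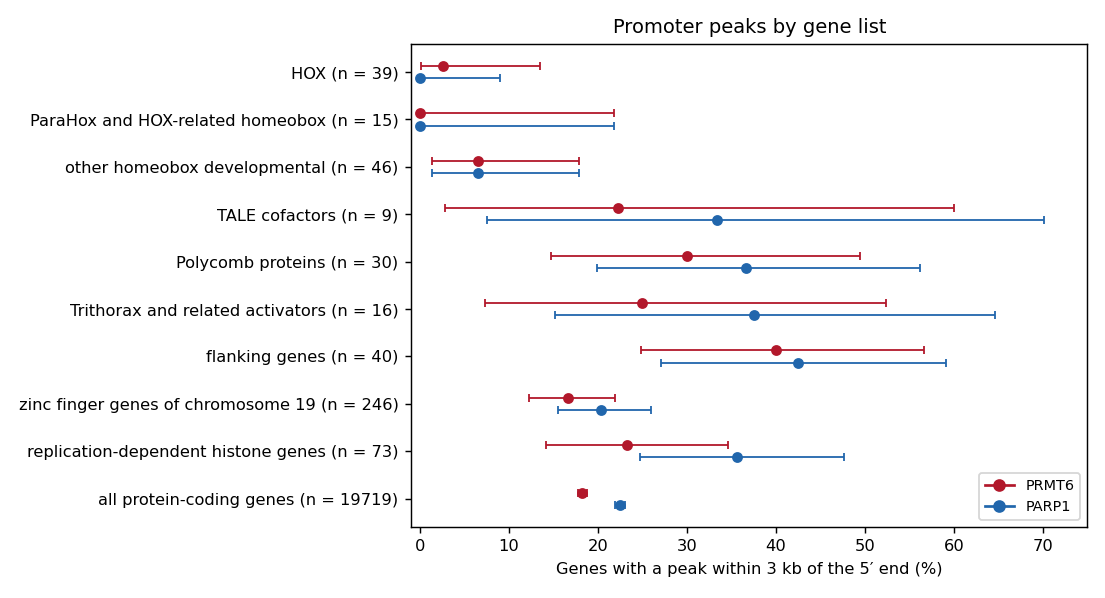
Share of genes with a PRMT6 or PARP1 peak within 3 kb of the 5′ end, in percent, for the HOX genes, the other lists and all protein-coding genes, with the number of genes in parentheses. Points are shares and bars are 95% exact binomial intervals. The HOX genes (2.56% and 0%) and both other homeobox lists sit to the left of all protein-coding genes (18.3% and 22.5%). The genes flanking the clusters (40% and 42.5%), which lie 3.53 to 1362 kb away, sit to the right.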

How the data were processed

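MDA-MB-231 chromatin was profiled with 1 library per antibody, grouped by the antibody in the labels. The methods describe CUT&Tag, whereas the labels also describe adaptor ligation of immunoprecipitated DNA, so the chemistry is uncertain. The submitters' processing notes name CASAVA 1.4, Bowtie 0.12.8, MACS, MACS2 and hg19. Peak caller thresholds and controls are not given in the sources used here. The authors deposited chromosome, start, end and a score per peak, taken as a −log10 p-value from the peak caller. Read depth is unknown, and scores were used to rank within a list only. Peak numbers in both lists ran without gaps.

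The positions did not match hg19. Within 1 kb of a coding 5′ end lay 30.2% of PRMT6 and 29.5% of PARP1 peaks with GRCh38 starts, and 3.98% and 3.89% with GRCh37 starts, so RefSeq records of GRCh38.p14 were used. Strand came from the RefSeq promoter table (15842 genes) or from the GENCODE gene of the same name (3877), and 337 records without one were left out. CpG content was read in GRCh37 around the GENCODE start and joined by gene. Overlap meant at least 1 shared bp (Python 3.11.15, numpy 2.4.6, pandas 2.3.3, scipy 1.17.1). Promoter assignment, tested on simulated data, found 200 of 200 planted peaks.

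HOX genes and all peaks in the clusters were described, along with at most 4 genes of each other list with peaks in both lists by mean score percentile. The genes and lists were chosen with earlier results of these data known. Promoter window, score threshold, smallest peak width, start choice and cluster bounds were varied. The single values of 1 HOX gene, which stays in all counts and medians, are not reported here, and peak sequences were not analysed here.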

Additional observations from a re-analysis of the deposited data

How the results depend on the processing

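Of 106 recomputed values, 83 stayed within 1.5 times the reported count and 23 moved. Many of the 83 were counts of 0 that stayed at 0, which a stricter setting cannot raise, so their number says little about stability. Wherever HOX promoter peaks were recounted, at most 3 of 39 HOX genes had one in a list. With promoters widened to 10 kb each way, 3 HOX genes had a PRMT6 peak (24% of all genes) and 2 a PARP1 peak (29.4%). These were 2 HOXB and 3 HOXD genes, 2 of paralogs 1 to 3 and 3 of paralogs 9 to 13. Counting any peak in the gene record or within 3 kb of it gave 2 genes for PRMT6, both in HOXD and of paralogs 9 to 13, against 30.6% of all genes. When each list was cut to its higher-scoring 50%, and when peaks of the smallest width were left out, 0 HOX genes had a PRMT6 peak, so that the HOXD count and that of paralogs 9 to 13 were also 0; the HOXD10 peak is removed by both settings. The clusters then held 0 PRMT6 peaks under both, and 0 and 1 PARP1 peaks. With HOXB ending at HOXB9, a setting chosen after seeing the data, 1 peak of each list remained. The other homeobox genes with peaks in both lists fell from 2 to 1 within 1 kb and to 1 in the higher-scoring 50%. The contrast lists also lost genes with peaks in both lists in the higher-scoring 50%. Flanking genes fell from 14 to 10, Polycomb genes from 6 to 4 and Trithorax and related genes from 3 to 2, while TALE genes stayed at 2.

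Each gene record has a single 5′ end here. Using every start of the RefSeq promoter table, also chosen after seeing the data, left the counts at 1 and 0. The promoter table covers 20 of the 39 HOX genes, so other starts of the remaining genes were not examined. Had the positions been GRCh37, 1 HOX promoter would have had a PRMT6 peak and 2 a PARP1 peak. Occupancy below the threshold of the authors' peak calls is not seen in these lists, and neither read depth nor input DNA was analysed here. No paired analysis was possible because only 1 library represents each antibody.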
